A study of Homo sapiens with 6 samples.

Results

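The genes described here encode the nuclear subunits of respiratory complex I and the NDUFAF factors that help to build it. They were chosen by name, as every gene whose symbol is NDUF followed by A, AB, AF, B, C, S or V and a number, which gave 46 of the 63241 genes in the deposited expression file. Of these, 37 encode complex I subunits, 8 encode NDUFAF assembly factors, and NDUFA4 encodes a protein first listed under complex I and now placed in complex IV, so it is given apart. All 46 passed the filter on low values.

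RNA-seq was performed on HT−29 cells, a human colorectal adenocarcinoma line, labelled as wild type, to examine how Amuc_0904, an outer membrane protein of *Akkermansia muciniphila*, acts on these epithelial cells. The Control group was 3 libraries of cells given buffer, and the Amuc_0904 group was 3 libraries of cells given recombinant Amuc_0904 (0.5 μM, 72 h), with no other agent in either group. The labels do not say whether the libraries of a group came from separate cultures. P values therefore measure only the spread between these libraries, which may be technical. Expression is in TPM, each gene's share of a library's transcripts after correction for transcript length, and the depth of each library is unknown.

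Complex I, NADH:ubiquinone oxidoreductase, takes electrons from NADH and passes them to ubiquinone while it pumps protons out of the mitochondrial matrix. Its matrix arm holds the flavin and the iron-sulfur clusters, and its membrane arm holds the proton channels, which are encoded by the mitochondrial genome. NDUFAF factors bind or modify parts of the enzyme during assembly and are absent from the finished complex. Colonic epithelial cells draw much of their energy from oxidative phosphorylation.

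Amuc_0904 replicate 1 stood apart from the other libraries before any member was considered. On the first principal component of all tested genes the controls lay between −13.0 and −12.4, Amuc_0904 replicate 1 lay at −4.79, and Amuc_0904 replicates 2 and 3 lay at 20.4 and 22.8. The share of TPM from mitochondrially encoded genes was 12.8% to 13.5% in the controls, 12.9% in Amuc_0904 replicate 1, 10.6% in replicate 2 and 11.1% in replicate 3. The counts of gene groups and the log2 fold changes of named members and group extremes are therefore given with and without Amuc_0904 replicate 1. This library was singled out from these same data, as the Amuc_0904 library nearest to the controls. Results without it are thus a description, and their p values can be too small. The 8 colon epithelium markers summed to 5550 to 5606 TPM in the controls and to 5533 to 6363 TPM in the Amuc_0904 group. *KRT8* and *KRT18* had the highest levels, with means over the 6 libraries of 2910 and 2037 TPM. *CDX1*, at 0.5 to 1.36 TPM and not tested, and *CDX2*, at 0.46 to 1.71 TPM, were low. *EPCAM*, *CDH1* and *CDX2* had lower means in the Amuc_0904 group, and *KRT8*, *KRT18*, *KRT20*, *CDX1* and *VIL1* had higher means. Of 10 markers of absorptive enterocytes, the cell type the labels name, 3 were tested, among them *FABP1* and *CA2*, and 7 were under 1 TPM in every library, with *FABP2*, *CA1* and *AQP8* at 0. These 10 summed to 163 to 173 TPM in the controls and to 177 to 201 TPM in the Amuc_0904 group, without overlap. Fibroblast markers (0.63 to 1.91 TPM in the controls, 1.07 to 1.47 in the Amuc_0904 group, *COL1A2* at 0), endothelial markers (0.63 to 1.52 and 0.92 to 1.5, *CDH5* at 0) and leukocyte markers (5.71 to 6.77 and 2.96 to 4.35, *CD3E* at 0) were low. The leukocyte sums did not overlap, and most of each was *CD14*, at 4.65 to 4.76 TPM in the controls and 1.89 to 2.85 TPM in the Amuc_0904 group. Its log2 fold change was −0.72 (limma, adjusted p = 0.150). The part of these markers in the results was not tested, and in bulk samples a difference in the number of cells that express a gene and a difference in its RNA per cell cannot be told apart.

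Most complex I genes stood slightly higher after Amuc_0904 than in the controls, and 1 of them, *NDUFAF5*, passed the test, a call that was lost with median-of-ratios scaling, quantile normalization or no filter on low values. With limma across 14333 tested genes and an adjusted p under 0.05 as the threshold, 1 of 46 members rose, where 0.0698% of all tested genes rose, and 0 of 46 fell, where 0.167% of all tested genes fell. At an unadjusted p under 0.05, 14 of 46 members were higher and 0 were lower, against 9.95% and 5.87% of all tested genes. The number higher at that threshold was 5 of 46 with median-of-ratios scaling, 5 of 46 with quantile normalization and 8 of 46 with mitochondrial genes removed. The mean was higher in the Amuc_0904 group for 41 of 46 members, against 50.4% of all tested genes, and for 35 of 46 after quantile normalization. The median log2 fold change, the difference of mean log2(TPM + 1), was 0.13 over the members and 0.0015 over all tested genes.

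The higher values lay mainly in Amuc_0904 replicates 2 and 3. In replicate 2, 36 of 46 members lay above the range of the 3 controls, against 4487 of 14333 tested genes. In replicate 3, 41 of 46 did, against 4391 of 14333. In replicate 1, 18 lay above that range, 12 below it and 16 within it. Of the 14333 tested genes, 6032 lay above it in replicate 1, 2290 below it and 6011 within it. Replicate 1 was the lowest of its group for 31 of 46 members, against 3924 of 14333 tested genes. All 3 Amuc_0904 libraries exceeded all 3 controls for 14 members, against 13.4% of all tested genes, and lay below all 3 controls for 0 members, against 7.59% of all tested genes. For 20 further members replicates 2 and 3 did so while replicate 1 did not, against 9.36% of all tested genes. Without Amuc_0904 replicate 1, 22 of 46 members passed the adjusted p as higher and 0 as lower, where 9.51% of all tested genes passed as higher and 9.24% as lower, and the members' median log2 fold change was 0.16. In that comparison 43 of 46 members had higher means, against 44.8% of all tested genes.

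**Figure D1:**
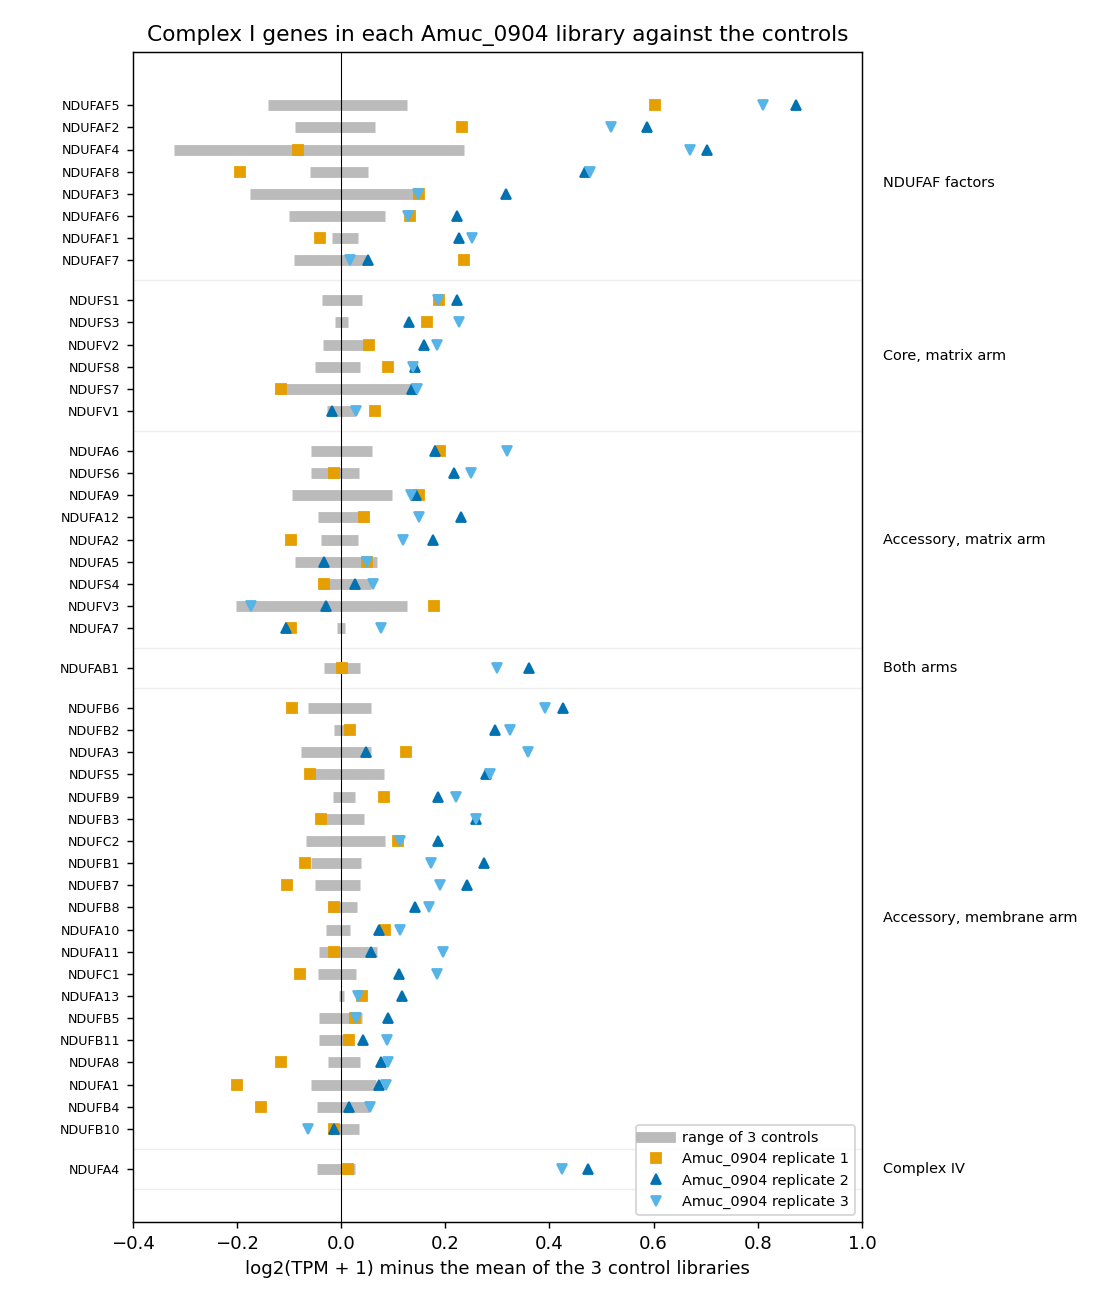
Each row is 1 of 45 of the genes, the horizontal axis gives log2(TPM + 1) minus the mean of the 3 controls, grey bars span the controls and coloured points are the 3 Amuc_0904 libraries. Most triangles, replicates 2 and 3, sit to the right of the grey bars, while the squares, replicate 1, lie on both sides of them, and *NDUFAF5* has all 3 points well to the right of its bar.

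The member past the threshold was 1 of the 8 NDUFAF assembly factors. *NDUFAF5* (ENSG00000101247, chr20:13784950-13821582 on the plus strand of GRCh38) encodes an enzyme that hydroxylates an arginine of the subunit NDUFS7 early in assembly. Its level was 12.2, 13.7 and 14.9 TPM in the controls and 21.1, 25.7 and 24.6 TPM in Amuc_0904 replicates 1, 2 and 3. The groups did not overlap, and every Amuc_0904 library stood well above the highest control. *NDUFAF5* rose from 13.6 ± 1.35 to 23.8 ± 2.38 TPM (SD, n = 3 libraries each), a log2 fold change of 0.76 with a standard error of 0.10 and a 95% confidence interval of 0.53 to 0.997 (limma, adjusted p = 0.0447). Its p ranked 33 among the 34 genes that passed, and without Amuc_0904 replicate 1 the log2 fold change was 0.84 (limma, adjusted p = 0.00288). The call was lost when Control replicate 1, 2 or 3 or Amuc_0904 replicate 2 or 3 was left out, with an adjusted p by limma of 0.213, 0.225, 0.118, 0.212 and 0.196. It was also lost with median-of-ratios scaling, quantile normalization and no filter on low values, with an adjusted p by limma of 0.0725, 0.0681 and 0.182.

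*NDUFAF2* (ENSG00000164182, chr5:60945129-61153037, plus strand), a paralog of the subunit NDUFA12 that holds its place late in assembly, was the most highly expressed of the 8 factors. It stood at 59.6, 53.5 and 57.9 TPM in the controls and at 67.1, 86.0 and 82.0 TPM in Amuc_0904 replicates 1, 2 and 3. The groups did not overlap, with replicate 1 the lowest of the Amuc_0904 group. The log2 fold change was 0.45, with a 95% confidence interval of 0.22 to 0.68, and the adjusted p by limma was 0.200. Without Amuc_0904 replicate 1 the log2 fold change was 0.55 (limma, adjusted p = 0.00272). The subunit *NDUFA12* itself measured 228, 221 and 236 TPM in the controls and 236, 268 and 253 TPM in the Amuc_0904 group, a log2 fold change of 0.14 (limma, adjusted p = 0.311), and 0.19 without replicate 1 (limma, adjusted p = 0.0235).

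The promoters of *NDUFAF5*, *NDUFAF2* and *NDUFA8* are shown because *NDUFAF5* and *NDUFAF2* had the highest log2 fold changes among the 46 genes, while *NDUFA8*, an accessory membrane-arm subunit, shared with *NDUFAF5* a match at the same distance from the start and had a log2 fold change of 0.02. Each run is 300 bases of the gene's own strand from RefSeq on GRCh38.p14, 250 before the RefSeq start and 50 from it on. Capitals mark matches of GCGCATGC on either strand, a core of the palindromic motif of NRF1, a factor known for binding promoters of respiratory genes. The windows are chr20:13784778-13785077 on the plus strand, chr5:60944955-60945254 on the plus strand and chr9:122159730-122160029 on the minus strand.
NDUFAF5: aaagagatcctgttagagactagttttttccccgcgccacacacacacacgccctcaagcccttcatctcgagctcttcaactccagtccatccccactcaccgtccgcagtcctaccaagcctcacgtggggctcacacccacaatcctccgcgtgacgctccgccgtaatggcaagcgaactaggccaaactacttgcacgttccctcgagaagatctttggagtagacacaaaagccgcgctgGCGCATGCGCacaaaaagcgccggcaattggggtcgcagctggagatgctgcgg
NDUFAF2: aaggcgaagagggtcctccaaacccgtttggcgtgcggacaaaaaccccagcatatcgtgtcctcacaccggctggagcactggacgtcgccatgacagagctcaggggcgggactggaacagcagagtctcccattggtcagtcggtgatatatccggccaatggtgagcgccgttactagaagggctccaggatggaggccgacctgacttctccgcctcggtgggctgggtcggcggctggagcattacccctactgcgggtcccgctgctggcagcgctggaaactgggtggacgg
NDUFA8: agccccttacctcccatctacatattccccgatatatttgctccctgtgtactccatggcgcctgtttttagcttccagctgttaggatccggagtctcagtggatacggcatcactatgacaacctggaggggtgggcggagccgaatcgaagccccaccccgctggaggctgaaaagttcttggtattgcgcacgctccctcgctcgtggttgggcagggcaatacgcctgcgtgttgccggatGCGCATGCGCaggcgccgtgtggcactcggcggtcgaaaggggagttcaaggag
The capitals begin 4 bases before the start and span it in both *NDUFAF5* and *NDUFA8*, and *NDUFAF2* has no match in this window.

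RefSeq promoters were found for 39 of the 46 genes, and 6 of these had several windows. A gene was counted once if any of its windows held the motif. The NRF1 core was found in 8 of the 39 (20.5%), namely *NDUFA5*, *NDUFA6*, *NDUFA8*, *NDUFAF4*, *NDUFAF5*, *NDUFB4*, *NDUFS6* and *NDUFS7*. The share was 3.68% of all 27305 genes with a window of this length and 6.53% of the tested genes among them. In *NDUFAF5*, *NDUFA8* and *NDUFB4* matches on both strands overlapped, which makes the full palindrome. The YY1 motif AAGATGGCG, searched on both strands, was found in 7 of 39 (17.9%), namely *NDUFA6*, *NDUFA7*, *NDUFA9*, *NDUFAF8*, *NDUFB8*, *NDUFS4* and *NDUFS7*. Its share was 2.14% of all genes with such a window and 4.78% of the tested genes among them. In each of these 7 genes the match lay on the gene's own strand 9 to 25 bases after the start, where each match begins. *NDUFAF8* had windows from different starts, and a match lay 16 bases after the start in 1 and 9 bases after it in another. The ETS motif CCGGAAGT, searched on both strands, was found in 2 of 39 (5.13%), *NDUFA13* and *NDUFS1*. Its share was 4.95% of all genes with such a window and 10.4% of the tested genes among them. In log2 fold change the genes with a YY1 match ran from *NDUFA7*, with the lowest log2 fold change of all members, −0.04, to *NDUFAF8* at 0.25. Those with an NRF1 match ran from *NDUFB4* at −0.03 to *NDUFAF5* at 0.76. A match describes the letters only.

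The partner of NDUFAF5, NDUFAF8, stabilises it in the matrix. *NDUFAF8* stood at 33.8, 35.4 and 36.6 TPM in the controls and at 30.7, 49.1 and 49.5 TPM in Amuc_0904 replicates 1, 2 and 3. Replicate 1 lay below every control and replicates 2 and 3 above every control, so the groups overlapped. The log2 fold change was 0.25 (95% confidence interval −0.16 to 0.66) with an adjusted p by limma of 0.509, and without replicate 1 it was 0.47 with an adjusted p of 0.00283.

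NDUFAF3 and NDUFAF4 bind each other and the module that reduces ubiquinone. *NDUFAF4* measured 15.1, 20.4 and 22.8 TPM in the controls and 18.1, 31.8 and 31.1 TPM in the Amuc_0904 group. Replicate 1 fell inside the control range, and this gene had the widest spread of the 46 among the controls, a coefficient of variation of 20.1%. Its log2 fold change was 0.43 with a standard error of 0.23 (limma, adjusted p = 0.412), and 0.69 without replicate 1 (limma, adjusted p = 0.0308). *NDUFAF3* measured 24.9, 19.8 and 23.0 TPM in the controls and 25.1, 28.3 and 25.02 TPM in the Amuc_0904 group, so that the lowest of these only just exceeded the highest control. Its log2 fold change was 0.20 (limma, adjusted p = 0.349), and 0.23 without replicate 1 (limma, adjusted p = 0.176).

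The other factors had smaller differences. *NDUFAF6*, needed for the early membrane module, had 11.5, 10.5 and 12.1 TPM in the controls and 12.5, 13.4 and 12.5 TPM in the Amuc_0904 group, without overlap and with a log2 fold change of 0.16 (limma, adjusted p = 0.357). *NDUFAF1*, a part of the assembly complex of the proton-pumping module, had 19.4, 20.1 and 19.4 TPM against 19.1, 23.1 and 23.6 TPM, with replicate 1 below the controls and a log2 fold change of 0.15 (limma, adjusted p = 0.450). *NDUFAF7*, a methyltransferase of the assembly pathway, had 19.8, 21.7 and 21.8 TPM against 25.01, 21.9 and 21.4 TPM, a log2 fold change of 0.10 (limma, adjusted p = 0.561). Of the 8 factors it was the only one with its highest value in Amuc_0904 replicate 1. Without replicate 1 the log2 fold changes of *NDUFAF6*, *NDUFAF1* and *NDUFAF7* were 0.18, 0.24 and 0.04, with adjusted p values by limma of 0.179, 0.0245 and 0.739. Exons of *NDUFAF3* and *NDUFAF7* overlap tested genes on the opposite strand, *DALRD3* for the first and *CEBPZ* and *PRKD3* for the second, and since the counting is not stated to use strand, reads of these pairs may have been shared.

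**Figure D2:**
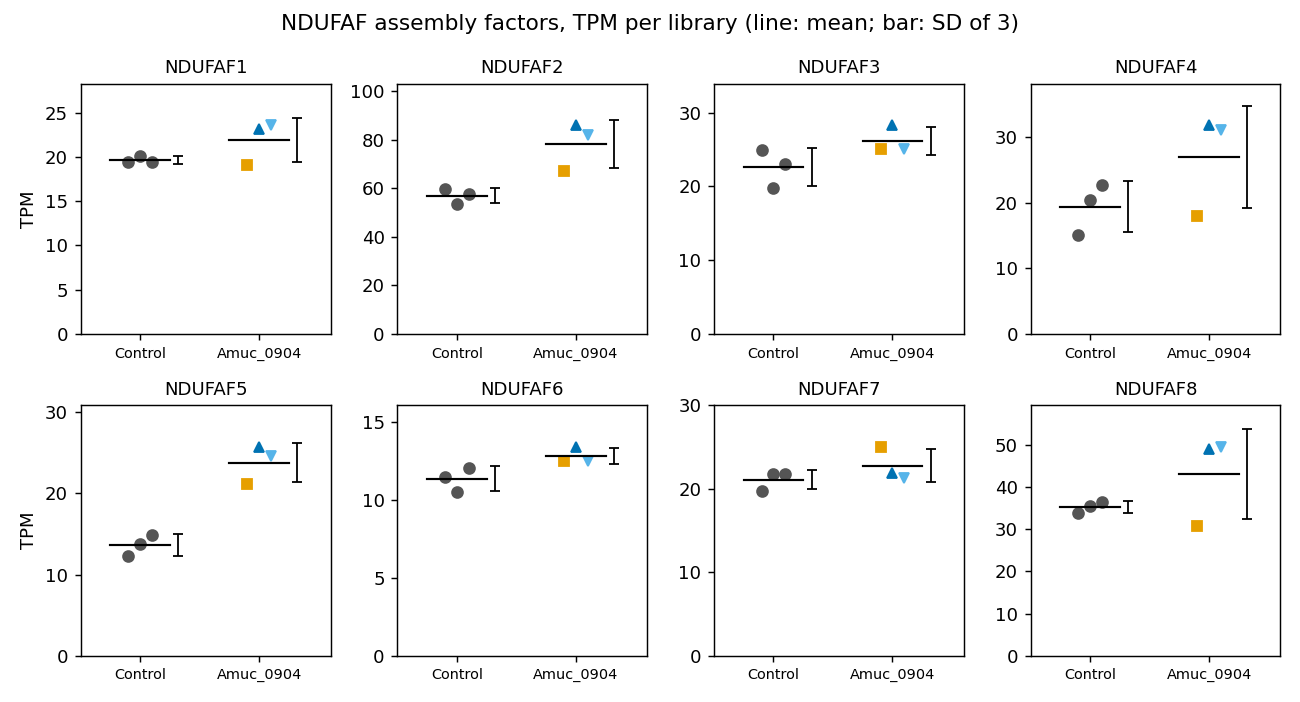
Each panel gives the TPM of 1 NDUFAF factor (vertical axis from 0) in the 3 control libraries, as circles, and in Amuc_0904 replicate 1, as a square, replicate 2, as an upward triangle, and replicate 3, as a downward triangle, with lines at the means and bars for the SD. *NDUFAF5*, *NDUFAF2*, *NDUFAF3* and *NDUFAF6* do not overlap between groups, and the square lies below the controls for *NDUFAF1* and *NDUFAF8*.

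Core subunits of the matrix arm carry the electron path. All 7 had higher means in the Amuc_0904 group, and 0 passed the adjusted p. At an unadjusted p under 0.05, 4 of 7 were higher, against 9.95% of all tested genes. The median log2 fold change was 0.12. Without replicate 1 that median was 0.14 and 3 of 7 passed the adjusted p as higher, where 9.51% of all tested genes did. *NDUFS1*, which holds several iron-sulfur clusters, had 58.7, 56.9 and 55.6 TPM in the controls and 65.2, 66.8 and 65.0 TPM in the Amuc_0904 group. *NDUFS3*, a structural part of the ubiquinone module, had 97.3, 99.1 and 98.0 TPM in the controls and 110.1, 107.6 and 114.9 TPM in the Amuc_0904 group. For both genes the groups did not overlap and replicate 1 lay with replicates 2 and 3, unlike in most members. Their log2 fold changes were 0.20 and 0.17, with adjusted p values by limma of 0.219 and 0.232. Without replicate 1 both log2 fold changes were similar, 0.20 and 0.18, with adjusted p values by limma of 0.0213 and 0.0272. Exons of *NDUFS1* overlap those of *EEF1B2* (mean 677 TPM) on the opposite strand. Those of *NDUFS3* overlap *CELF1* and *KBTBD4* on the opposite strand and *PTPMT1* on its own, so reads of these genes may have been shared.

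*NDUFS8*, an iron-sulfur subunit next to the ubiquinone site, had 95.4, 93.9 and 89.7 TPM against 99.1, 102.6 and 102.4 TPM without overlap, a log2 fold change of 0.12 (limma, adjusted p = 0.285). *NDUFV2*, an iron-sulfur subunit of the NADH-binding module, had 278, 263 and 261 TPM against 277, 298 and 303 TPM, a log2 fold change of 0.13 (limma, adjusted p = 0.303). In *NDUFV2* Amuc_0904 replicate 1 fell inside the control range and replicates 2 and 3 lay above it. Without replicate 1 the log2 fold changes of *NDUFS8* and *NDUFV2* were 0.14 and 0.17, with adjusted p values by limma of 0.0526 and 0.0222. The smallest differences of the core subunits were in *NDUFS7*, the substrate of NDUFAF5, and *NDUFV1*, which binds the flavin and NADH. *NDUFS7* had 41.2, 36.8 and 34.0 TPM against 34.3, 41.0 and 41.3 TPM, and *NDUFV1* had 139, 144 and 141 TPM against 148, 140 and 144 TPM. The log2 fold changes were 0.06 and 0.03, both with overlapping groups, with adjusted p values by limma of 0.812 and 0.817, and without replicate 1 the log2 fold changes were 0.14 and 0.0056, with adjusted p values by limma of 0.275 and 0.925.

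The 9 accessory subunits of the matrix arm had a median log2 fold change of 0.07, with 7 higher and 2 lower means, and 0 passed the adjusted p. Without replicate 1 the median was 0.14 and 4 of 9 passed as higher, against 9.51% of all tested genes. *NDUFA6*, a subunit of the LYR family that anchors an acyl carrier protein to this arm, had the highest log2 fold change of them, from 55.8, 58.1 and 60.6 TPM in the controls to 66.4, 66.0 and 72.7 TPM in the Amuc_0904 group. The groups did not overlap, and the log2 fold change was 0.23 with a 95% confidence interval of 0.09 to 0.37 (limma, adjusted p = 0.232), or 0.25 without replicate 1 (limma, adjusted p = 0.0328). *NDUFA7* had the lowest log2 fold change of all members, with 58.1, 58.4 and 58.7 TPM in the controls and 54.6, 54.2 and 61.6 TPM in the Amuc_0904 group, 2 libraries below the controls and 1 above, and its log2 fold change was −0.02 without replicate 1. Exons of *NDUFA7* overlap those of *RPS28* (mean 299 TPM) on the opposite strand, and reads of this pair may have been shared. *NDUFV3*, a small subunit at the NADH-binding tip, was the member with the lowest level, with a mean of 8.82 TPM, and its log2 fold change was −0.01 with a 95% confidence interval of −0.30 to 0.29, and −0.10 without replicate 1. *NDUFAB1*, the mitochondrial acyl carrier protein that sits in both arms, had 185, 180 and 176 TPM in the controls and 180, 231 and 222 TPM in the Amuc_0904 group. Replicate 1 lay inside the control range and the other Amuc_0904 libraries above it, with a log2 fold change of 0.22 (limma, adjusted p = 0.312), and 0.33 without replicate 1 (limma, adjusted p = 0.00299).

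The 20 accessory subunits of the membrane arm, which surround the mitochondrially encoded channels, had a median log2 fold change of 0.09. Of these, 17 had higher and 3 had lower means, and 0 passed the adjusted p. Without replicate 1, 8 passed it as higher, against 9.51% of all tested genes, and the median was 0.15. *NDUFB6* had 35.6, 32.6 and 34.3 TPM in the controls and 31.9, 46.2 and 45.1 TPM in the Amuc_0904 group, the highest log2 fold change of all subunits, 0.24, but with replicate 1 below every control (limma, adjusted p = 0.426). Without replicate 1 its log2 fold change was 0.41 (limma, adjusted p = 0.00496). *NDUFB2* had 240.5, 239.0 and 236.6 TPM in the controls, among the tightest of the members, and 241.6, 293 and 299 TPM in the Amuc_0904 group. Replicate 1 exceeded the highest control by about 1 TPM only, so the groups did not overlap, and the log2 fold change was 0.21 (limma, adjusted p = 0.292), or 0.31 without replicate 1 (limma, adjusted p = 0.00166). *NDUFA3* had 188, 171 and 183 TPM against 197, 187 and 232 TPM, a log2 fold change of 0.18 (limma, adjusted p = 0.363), and 0.20 without replicate 1 (limma, adjusted p = 0.175).

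The 3 most highly expressed members were all in the membrane arm. *NDUFB9*, a LYR subunit that binds the acyl carrier protein there, had 659, 677 and 658 TPM in the controls and 704, 757 and 775 TPM in the Amuc_0904 group, without overlap and with a log2 fold change of 0.16 (limma, adjusted p = 0.247). *NDUFS5*, a subunit facing the intermembrane space, had 612, 596 and 657 TPM against 596, 753 and 757 TPM, a log2 fold change of 0.17 (limma, adjusted p = 0.438). *NDUFA1*, a small single-span subunit, had 592, 646 and 612 TPM against 536, 648 and 655 TPM, a log2 fold change of −0.01 (limma, adjusted p = 0.953). In *NDUFA1* replicate 1 lay below every control and replicates 2 and 3 just above the highest. Without replicate 1 the log2 fold changes of *NDUFB9*, *NDUFS5* and *NDUFA1* were 0.20, 0.28 and 0.08, with adjusted p values by limma of 0.00458, 0.00909 and 0.202. *NDUFB4*, *NDUFB10* and *NDUFA8* also had log2 fold changes near 0, at −0.03, −0.03 and 0.02, with 95% confidence intervals of −0.18 to 0.13, −0.13 to 0.07 and −0.14 to 0.17, and without replicate 1 they were 0.04, −0.04 and 0.08.

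*NDUFA4*, the complex IV protein, had 74.5, 70.8 and 74.05 TPM in the controls and 73.8, 102.0 and 98.4 TPM in the Amuc_0904 group. Replicate 1 lay inside the control range, and replicates 2 and 3 lay well above it. The log2 fold change was 0.30 (95% confidence interval 0.03 to 0.58, limma adjusted p = 0.289), larger than that of any of the 37 subunits, and 0.45 without replicate 1 (limma, adjusted p = 0.00196).

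The NDUFAF factors had a larger median log2 fold change than the subunits, 0.23 against 0.10, or 0.20 when *NDUFAF5* was left out. Without Amuc_0904 replicate 1 the medians were 0.36 against 0.15, a difference of 0.21 in place of 0.13, and without replicate 2 the difference was 0.068. With quantile normalization the medians were 0.21 and 0.05. All 8 factors and 32 of 37 subunits had higher means in the Amuc_0904 group. Without replicate 1, 5 of 8 factors and 16 of 37 subunits passed the adjusted p as higher, against 9.51% of all tested genes. The factors' median difference from the control mean was 0.14, 0.39 and 0.37 in Amuc_0904 replicates 1, 2 and 3. That of the subunits was 0.0016, 0.14 and 0.15, so the order was the same in each Amuc_0904 library. In Control replicates 1, 2 and 3 it was −0.04, 0.01 and 0.05 for the factors and 0.02, −0.02 and −0.0006 for the subunits. The order was thus the other way in Control replicate 1. In summed TPM the factors took 195 to 208 TPM in the controls and 219, 279 and 270 TPM in Amuc_0904 replicates 1, 2 and 3. The subunits took 7586 to 7684 TPM in the controls and 7569, 8509 and 8571 TPM in the Amuc_0904 group, so their sum in replicate 1 was below every control.

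Level and spread also differed between the factors and the subunits. The median level was 22.6 TPM for the factors, with a range of 12.1 to 67.7, and 168 TPM for the subunits, with a range of 8.82 to 705 TPM. The median standard error of the log2 fold change was 0.10 for the factors and 0.06 for the subunits. The 5 subunits whose mean level lay within the range of the factors, *NDUFB6*, *NDUFA6*, *NDUFS1*, *NDUFS7* and *NDUFA7*, had log2 fold changes from −0.04 to 0.24 with a median of 0.20, and the 31 subunits above that range had a median of 0.10. Without replicate 1 the medians were 0.20 for these 5 subunits and 0.15 for these 31. This grouping by level was made after the values were seen, and the part of level in the difference between factors and subunits was not tested.

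**Figure D3:**
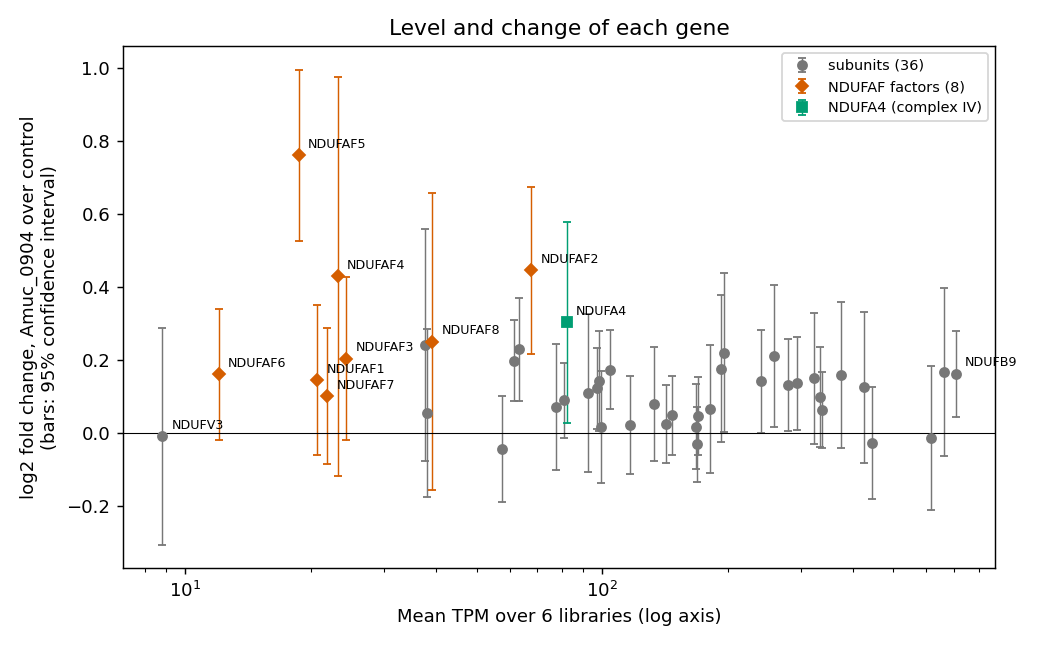
Each point is 1 gene, with its mean TPM over the 6 libraries on a log axis and its log2 fold change, Amuc_0904 over control, with the 95% confidence interval as bars. The 8 factors, as diamonds, lie between 12.1 and 67.7 TPM and all above 0, and most of the 36 subunits plotted, as circles, lie at higher levels between −0.04 and 0.24.

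Other genes of complex I were taken from lists written from general knowledge. The 7 complex I subunits of the mitochondrial genome all had lower means after Amuc_0904. Their median log2 fold change was −0.12, and 0 of 7 passed the adjusted p or an unadjusted p under 0.05. Without replicate 1 the median was −0.19. Their median difference from the control mean was 0.08 in Amuc_0904 replicate 1 and −0.20 in each of replicates 2 and 3, opposite in sign to the nuclear subunits in the latter libraries. *MT-ND3*, a membrane-arm core subunit, was the lowest, with 12487, 13426 and 12619 TPM in the controls and 12947, 9840 and 10110 TPM in the Amuc_0904 group, a log2 fold change of −0.24. *MT-ND4*, one of the proton channels, was the highest at −0.04. Without replicate 1 *MT-ND3* was at −0.36 and *MT-ND4* at −0.11. Without replicate 1, 4 of 7 passed the adjusted p as lower, *MT-ND1*, *MT-ND2*, *MT-ND3* and *MT-ND6*, against 9.24% of all tested genes. TPM is a share, so the values of different genes depend on each other. With mitochondrial genes removed the medians were 0.07 for the nuclear subunits and 0.20 for the NDUFAF factors, with 38 of 46 higher means. The median over all genes tested was −0.0212 in that setting and 0.0015 in the main one. The part of the mitochondrial share in these differences was not tested.

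Of 12 complex I assembly genes without an NDUF name, 10 had higher and 2 lower means, 0 passed the adjusted p, and the median log2 fold change was 0.06. Without replicate 1, 3 of 12 passed as higher, against 9.51% of all tested genes, and the median was 0.11. *FOXRED1*, an assembly factor of the oxidoreductase type, had the highest, with 16.4, 18.9 and 16.9 TPM in the controls and 20.2, 23.3 and 24.0 TPM in the Amuc_0904 group, a log2 fold change of 0.35 (limma, adjusted p = 0.232), and 0.42 without replicate 1 (limma, adjusted p = 0.0126). *TMEM186*, of the same assembly complex as NDUFAF1, had the lowest, −0.17 both with and without replicate 1. Of 41 nuclear subunits of complexes II to V, 36 had higher means, 0 passed the adjusted p, and the median was 0.10, with *COX7B* of complex IV highest at 0.45 and *UQCRQ* of complex III lowest at −0.16. Without replicate 1, 25 of these 41 passed the adjusted p as higher and 1, *UQCRQ*, as lower, against 9.51% and 9.24% of all tested genes. The median was then 0.18, and *COX7B* and *UQCRQ* were at 0.59 and −0.15. Of 31 assembly genes of complexes II to V, 26 had higher means and 0 passed, with a median of 0.10, *LYRM7* of complex III assembly highest at 0.71 and *SURF1* of complex IV assembly lowest at −0.15. Without replicate 1, 8 of 31 passed as higher, against 9.51% of all tested genes, the median was 0.15, and *LYRM7* and *SURF1* were at 0.89 and −0.20. The median of the nuclear complex I subunits was 0.10 with all libraries and 0.15 without replicate 1, beside 0.10 and 0.18 for the subunits of complexes II to V.

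**Figure D4:**
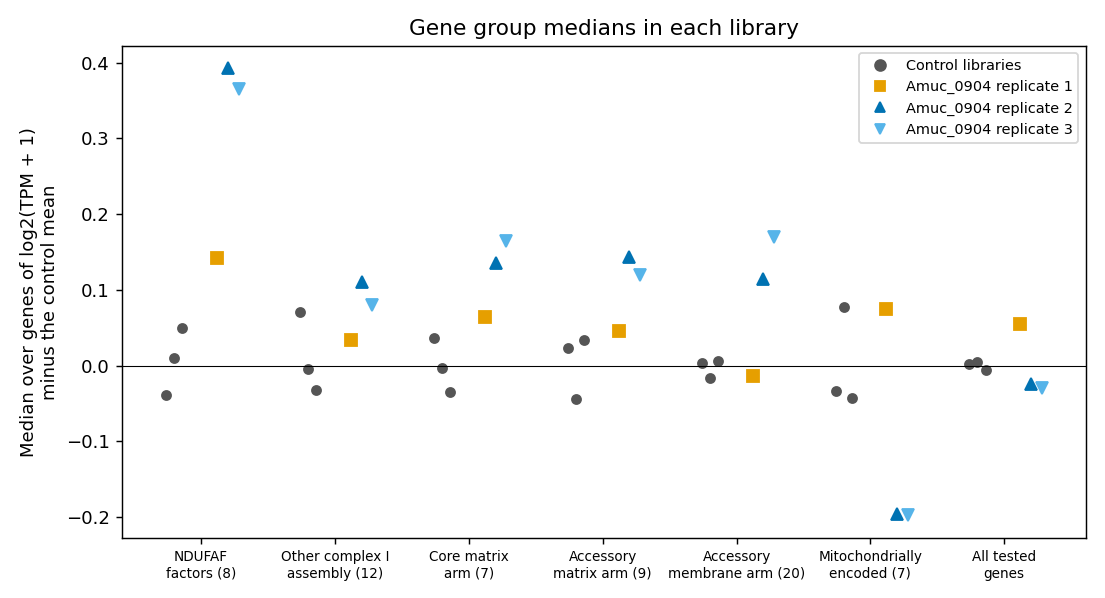
For each gene group, points give the median over its genes of log2(TPM + 1) minus the control mean in each of the 6 libraries. Replicates 2 and 3 of the Amuc_0904 group lie at 0.39 and 0.37 for the NDUFAF factors, between 0.11 and 0.17 for the nuclear subunit groups and at −0.20 for the mitochondrially encoded subunits, while replicate 1 lies nearer to the controls in these groups. For all tested genes replicate 1 lies farther from the controls, at 0.055, than replicates 2 and 3, at −0.024 and −0.030.

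The members were spread over 22 chromosomes, and many faced another gene. By GENCODE on GRCh38, 23 of 46 members (50%) had the start of a protein-coding gene on the opposite strand within 1000 bp of their own, against 18.4% of 11730 tested protein-coding genes. Of these neighbours 19 were tested, 13 had higher means, against 50.4% of all tested genes, and 0 passed the adjusted p. At an unadjusted p under 0.05, 5 of 19 were higher, against 9.95% of all tested genes. These were *CPSF2*, *MRPL47*, *ESF1*, *WDR4* and *TATDN1*. The median log2 fold change of the tested neighbours was 0.04. *ESF1*, whose start lies 64 bp from that of *NDUFAF5*, had 17.5, 18.3 and 18.8 TPM in the controls and 20.2, 19.9 and 20.3 TPM in the Amuc_0904 group. The groups did not overlap, and the log2 fold change was 0.14 (limma, adjusted p = 0.309). *ERCC8*, 56 bp from *NDUFAF2*, had a log2 fold change of 0.0083 (limma, adjusted p = 0.973), and *TEPSIN*, 148 bp from *NDUFAF8*, had −0.20 (limma, adjusted p = 0.555). Exons of 20 members overlap those of a tested gene, and reads of these pairs may have been shared. *NDUFAF5*, *NDUFAF2*, *NDUFAF4*, *NDUFAF8* and *NDUFA4* share no exon with another gene.

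A further 69 rows with names that begin with NDUF, such as pseudogenes, antisense genes and readthrough genes, fell outside the rule, and 59 of them were under 1 TPM in every library. The readthrough gene *NDUFC2-KCTD14*, which shares exons with *NDUFC2*, had 4.04, 3.72 and 0 TPM in the controls and 3.77, 10.9 and 7.13 TPM in the Amuc_0904 group, so the split of reads between both genes is uncertain. *NDUFC2* itself had 267, 277 and 296 TPM in the controls and 302, 318 and 303 TPM in the Amuc_0904 group, a log2 fold change of 0.14 (limma, adjusted p = 0.298), and 0.15 without replicate 1 (limma, adjusted p = 0.0866).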

How the data were processed

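Gene expression was measured by RNA-seq in 6 HT−29 libraries. Per the labels, the authors trimmed reads with SeqPrep and Sickle, aligned them with HISAT2 and assembled transcripts with StringTie, and RSEM and edgeR are also listed, all without version. The authors deposited TPM per gene. The labels name the mouse build GRCm38.p6, while the identifiers are human Ensembl genes, so the human build is not given in the sources used here. The dose and time are those of the study's methods. The file holds 63241 genes, and 25 further lines with no gene were left out. No counts were used, so depth and counting error are unknown.

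The 14333 genes that reached 1 TPM in 3 or more libraries were tested as log2(TPM + 1), which understates differences of low genes, with limma 3.58.1 in R 4.3.3 (trend, robust), condition as the only term and Benjamini-Hochberg adjustment over all tested genes. Exact permutation of 3 against 3 libraries cannot go below p = 0.1. The script was tested on simulated data. The members and lists were chosen with earlier results of these data known. Named genes were all NDUFAF factors, *NDUFA4*, *NDUFAB1*, the core matrix-arm subunits (1 gene counted among them is not reported here by name or value), members past the adjusted p, the 6 highest and 6 lowest subunits by log2 fold change, the 3 highest and 3 lowest by level, and the extremes of each other list. *NDUFA12*, *NDUFC2*, *NDUFC2-KCTD14*, the genes with motif matches, the neighbouring genes and the genes with overlapping exons, with *MT-ND1*, *MT-ND2*, *MT-ND6* and *CD14*, were named after their values were seen. Positions are from GENCODE v29. Alternatives changed the pseudocount, filter, scaling, library weights, replicate block and libraries left out.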

Additional observations from a re-analysis of the deposited data

How the results depend on the processing

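No alternative turned the direction of *NDUFAF5*, whose log2 fold change ran from 0.69 to 0.84, but it passed the adjusted p in only 7 of 15 alternatives, with a range of 0.00288 to 0.225. The number of members that rose was 1 with a pseudocount of 0.1 or 0.5, a mean of at least 5 TPM or mitochondrial genes removed. It was 0 with no filter on low values, with median-of-ratios scaling and with quantile normalization, and 20 with array weights. Array weights gave Amuc_0904 replicate 1 a weight of 0.224, and 1315 of all 14333 tested genes then rose and 1056 fell. Without the filter 29705 genes were tested, and for the others the cause was not tested. The number of members that rose ran from 0 to 22 when each library was left out in turn. It was 22 without Amuc_0904 replicate 1, where 9.51% of all tested genes rose, and 0 without any other. In every alternative 0 members fell. Whether the replicate numbers pair the libraries is not known. Deviations of same-numbered libraries correlated at 0.05, −0.04 and −0.0047, which with 3 libraries a group cannot settle it. With the replicate block 1 member rose, *NDUFAF5*, at a log2 fold change of 0.76 (limma, adjusted p = 0.0463).

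The median of the NDUFAF factors minus that of the subunits was 0.13, and 0.19 with array weights. With each library left out in turn it ran from 0.0679, without Amuc_0904 replicate 2, to 0.21, without replicate 1, the factors' median from 0.15 to 0.36 and the subunits' median from 0.0780 to 0.15. Among the genes named by rule, *NDUFA1* (0.0576) and *NDUFB4* (0.0210) changed sign with array weights. So did *NDUFA8* (−0.0506), *NDUFV1* (−0.0385) and *NDUFV3* (0.0250) with quantile normalization, and *NDUFA8* (−0.0075) with mitochondrial genes removed. Members not listed here also changed sign. The members with higher means went from 41 of 46 to 35 with quantile normalization and to 38 with mitochondrial genes removed. With 1 library left out, *NDUFA1* ran from −0.0637 to 0.0799, *NDUFA8* from −0.0186 to 0.0836, *NDUFB4* from −0.0698 to 0.0355, *NDUFS7* from −0.0078 to 0.14, *NDUFV3* from −0.11 to 0.0750 and *MT-ND4* from −0.11 to 0.0094. With 3 libraries a group and no counts, depth as a limit could not be assessed.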
